A study of Homo sapiens with 8 samples.

Results

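The signal recognition particle (SRP) consists of the 7SL RNA and 6 proteins. Here the particle and the channel that it serves were described by 10 genes, namely the 7SL RNAs RN7SL1 and RN7SL2, the mRNAs of SRP9, SRP14, SRP19, SRP54, SRP68, and SRP72, and the mRNAs of the SEC61 subunits SEC61A1 and SEC61B. They were taken by gene name from the 57756 genes listed in the expression tables, and each name had 1 entry. The small ribosomal subunit was pulled down through its protein RPS6 by RNA immunoprecipitation (RIP) from Hep3B (hepatocellular carcinoma), HCT116 (colon cancer), DU145 (prostate cancer), and SW1990 (pancreatic cancer) cells. Each established cell line gave 1 RIP library and 1 input library, which holds RNA from an aliquot of the same lysate, so that the 8 libraries form 4 pairs and cell lines are the only units that repeat. The liver cancer pair is named 3B in the sample titles and Hep3B in the paper, while the cell line field of its labels gives Huh7. It is called Hep3B here. Libraries were made with a stranded total RNA kit, and a pulldown with a control antibody was not analysed here.

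SRP recognizes the signal sequence of a secretory or membrane protein as it leaves the ribosome, pauses elongation, and brings the ribosome to the SRP receptor on the endoplasmic reticulum (ER). The chain then passes through the SEC61 channel, where other ER complexes cleave, glycosylate, and fold it. In the particle, the 7SL RNA is the scaffold, SRP9 and SRP14 form a heterodimer on its Alu domain, SRP19 assists the binding of SRP54, SRP54 is the GTPase that holds the signal sequence, and SRP68 and SRP72 form another heterodimer. An mRNA meets the ribosome as its template, whereas 7SL RNA is not translated and meets it as part of SRP.

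Recovered fragments numbered between 34630231 and 54209591 per library. All 5 liver markers (ALB, AFP, APOA1, TTR, and SERPINA1) were at 1 FPKM or more in the Hep3B input. Other marker lists marked their lines less well, since 1 of 5 colon markers reached 1 FPKM in the HCT116 input, 2 in Hep3B, and 4 in SW1990. For the prostate list, 1 of 5 markers did so in the DU145 input and 2 in both HCT116 and SW1990. All 5 pancreatic duct markers did so in both the SW1990 and the HCT116 input, 4 in DU145, and 3 in Hep3B. Levels are given in FPKM, which divides fragments by the transcript length in kilobases that the authors' software used and by depth in units of 1000000. The estimated counts of 19921 genes were compared between RIP and input over the 4 pairs by the quasi-likelihood test of edgeR, with the cell line as a block, and fold changes are given with their standard error (SE). The p-values were adjusted by the Benjamini-Hochberg method, and a gene was called when the adjusted p-value was below 0.05. All 10 genes had enough counts to be tested.

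The 7SL RNAs were abundant in the inputs and between 27.6-fold (RN7SL1, SW1990) and 483-fold (RN7SL2, Hep3B) lower in the RPS6 pulldowns. Even so, RN7SL1 was above each SRP and SEC61 mRNA in FPKM in every RIP library. This order depends on the transcript length used for FPKM. By fragments, SRP68 and SEC61A1 were above RN7SL1 in every RIP library, with 5754 and 10792 compared with 827 in SW1990 cells. SRP14, SRP19, SRP54, and SEC61B had fewer fragments than RN7SL1 in every RIP library, and SRP9 and SRP72 differed by cell line. RN7SL1 and RN7SL2 together held 3.82% of all fragments in the Hep3B input, 2.11% in HCT116, 1.64% in DU145, and 0.133% in SW1990. In the RIP libraries they held 0.00886% (95% Wilson interval 0.00855% to 0.00918%), 0.0150% (0.0147% to 0.0154%), 0.0225% (0.0220% to 0.0230%), and 0.00376% (0.00357% to 0.00396%) in the same order. These intervals cover counting error only, since fragments are not independent molecules. For the differences between cell lines, fewer cells holding an RNA and less of it per cell cannot be told apart in bulk libraries such as these.

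RN7SL1 (ENSG00000258486) had 206166 FPKM in the Hep3B input, 84434 in HCT116, 76831 in DU145, and 6254 in SW1990, and its RIP libraries had 497, 909, 1275, and 227 FPKM in the same order. RN7SL2 (ENSG00000265150) had 115485, 80927, 63200.2, and 4825 FPKM in the inputs and 239, 650.5, 1148, and 167 FPKM in the RIP libraries. For both RNAs, every RIP library lay below every input. The RIP level of RN7SL1 was 0.241% of the input level for Hep3B, 1.08% for HCT116, 1.66% for DU145, and 3.62% for SW1990, and that of RN7SL2 was 0.207%, 0.804%, 1.82%, and 3.46%. The log2 fold change of RIP over input was -6.36 for RN7SL1 (SE 0.62, edgeR adjusted p = 2.4e-05) and -6.49 for RN7SL2 (SE 0.65, edgeR adjusted p = 2.74e-05). They had the 28th and the 24th lowest log2 fold changes among the 19921 genes tested. Without the SW1990 pair, whose input was the poorest in 7SL RNA, the log2 fold changes were -6.91 and -7.07, and without the Hep3B pair they were -5.81 and -5.91.

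**Figure D1:**
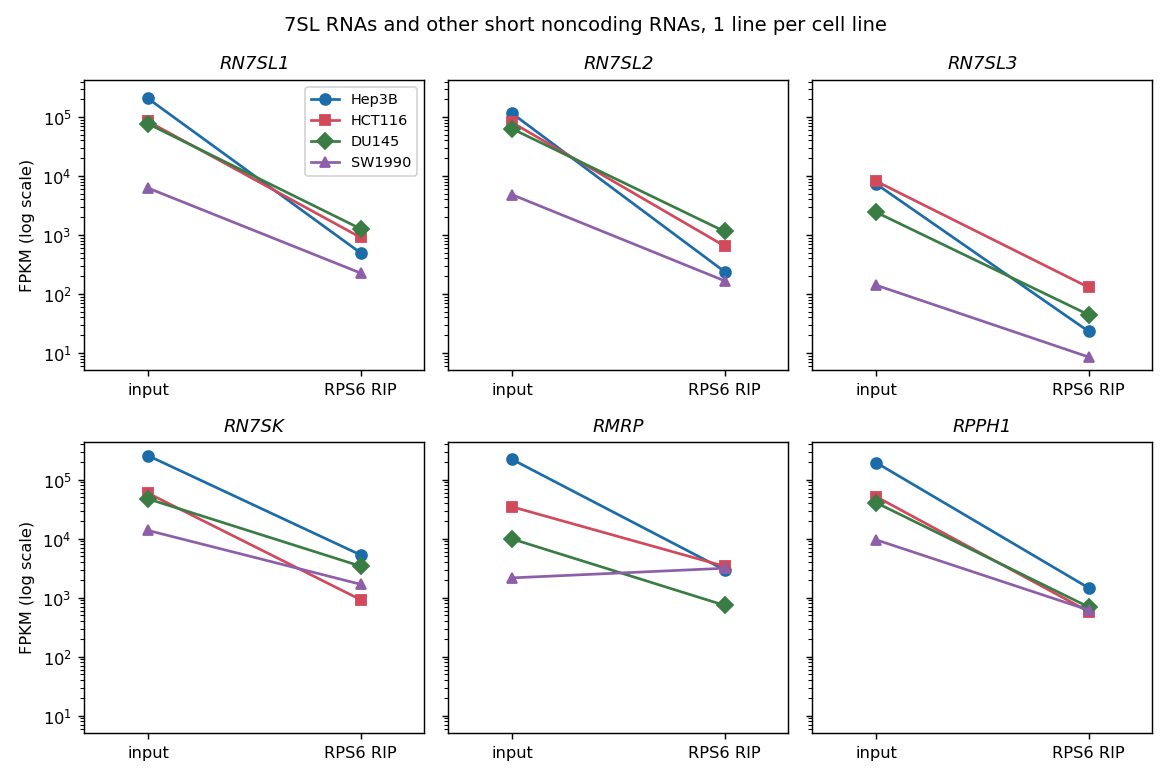
FPKM on a logarithmic axis in the input and the RPS6 RIP library of each cell line (1 line per cell line) for RN7SL1, RN7SL2, RN7SL3, and the short noncoding RNAs RN7SK, RMRP, and RPPH1. RN7SL1 fell from between 6254 and 206166 FPKM in the inputs to between 227 and 1275 FPKM in the RIP libraries, and RMRP was the only RNA shown with a rising line, in SW1990 cells.

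Over the 4 cell lines, the inputs differed in 7SL RNA more than the RIP libraries did, a contrast that rests on the SW1990 input. The highest input level of RN7SL1 was 33.0 times the lowest, while the highest RIP level was 5.63 times the lowest. For RN7SL2 these ratios were 23.9 and 6.87. In Hep3B, HCT116, and DU145 cells alone, RN7SL1 lay between 76831 and 206166 FPKM in the inputs and between 497 and 1275 FPKM in RIP. RN7SL2 lay between 63200 and 115485 FPKM in these inputs and between 239 and 1148 FPKM in RIP. Without SW1990, the inputs thus no longer clearly differed more for RN7SL1, and RN7SL2 differed more in RIP. The order of the inputs was Hep3B, HCT116, DU145, and SW1990 for both RNAs, and the order of the RIP libraries was DU145, HCT116, Hep3B, and SW1990. Each place in these orders rests on 1 library, so that differences between cell lines have no replicate check. The SW1990 input stood apart, with RN7SL1 12.3 times and RN7SL2 13.1 times below the next lowest input. Other short noncoding RNAs were also lowest in that input, by 3.43 times for RN7SK (the 7SK RNA, which restrains the elongation factor P-TEFb), 4.57 times for RMRP (the RNA of RNase MRP), and 4.26 times for RPPH1 (the RNA of RNase P). The part of short-RNA recovery in the low 7SL level of SW1990 cells was not tested. Among the protein mRNAs, SRP54 and SEC61A1 also had their lowest input level in SW1990 cells, whereas SRP9, SRP14, and SRP19 had their highest there.

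RN7SL1 and RN7SL2 are near-identical copies, and the authors' counting may have divided fragments between them. On human genome version 19 (hg19), the build of the tables, RN7SL1 carries chr14:50043389-50081390, a span that 6 other listed genes share, among them RPS29, and RN7SL2 carries chr14:50329270-50329567, a span of 298 bases on its own. The ratio of RN7SL1 to RN7SL2 FPKM lay between 1.04 and 1.79 in the inputs and between 1.11 and 2.08 in the RIP libraries. The related gene RN7SL3 (chr14:50320335-50320632) was less abundant, with 7345, 8175, 2435, and 141 FPKM in the inputs of Hep3B, HCT116, DU145, and SW1990 cells and 23.2, 129.6, 44.5, and 8.56 FPKM in the RIP libraries. Its log2 fold change was -6.01 (SE 0.59, edgeR adjusted p = 2.42e-05), close to those of both main copies. The tables also list 845 RN7SL pseudogenes, of which 17 had enough counts to be tested. Of the 17, 15 were lower in RIP, 0 were higher, and 2 were not called, while 24.9% of all genes tested were lower and 26.5% were higher. The minimum count was a mean over all 8 libraries, and pseudogene fragments were mostly in the inputs (358753 compared with 901 in Hep3B cells). A pseudogene could thus pass through its inputs alone, so that the count of 15 is no separate support. RN7SL5P and RN7SL4P, the most abundant pseudogenes, held between 69.5% and 98.4% of the pseudogene counts of a library. RN7SL5P had 52783, 19874, 37585, and 2597 FPKM in the inputs and 104, 202, 469, and 66.5 FPKM in the RIP libraries. When RN7SL1, RN7SL2, RN7SL3, and all pseudogenes were summed to 1 feature, which removes a division between these copies, the log2 fold change was -6.41 (SE 0.65, edgeR adjusted p = 2.7e-05). The sum does not correct for fragments that were dropped or counted at several copies, and the counting tool is not known. The sum held 4.91%, 2.78%, 2.54%, and 0.192% of the input fragments and 0.0117%, 0.0203%, 0.0325%, and 0.00571% of the RIP fragments in the order given above.

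Low recovery in RIP was shared with other short noncoding RNAs. For RN7SK the log2 fold change was -4.56 (SE 0.55, edgeR adjusted p = 7.7e-05) and RPPH1 of -5.78 (SE 0.55, edgeR adjusted p = 2.14e-05). RMRP was lower in 3 of 4 cell lines, and its value was -3.36 (SE 0.96, edgeR adjusted p = 0.0138). The summed level of RN7SL1 and RN7SL2 was compared with the median of these 3 RNAs in each pair, on a scale of log2(FPKM + 1) ratios of RIP to input. The differences of 7SL RNA from them were -2.54 for Hep3B, -0.73 for HCT116, -2.06 for DU145, and -1.78 for SW1990, and they averaged -1.78 ± 0.77 (SD, n = 4; exact sign-flip permutation test over pairs, two-sided, p = 0.125). A p-value of 0.125 is the smallest that 4 pairs allow, so this test cannot reach 0.05. RNY1, RNY3, RNY4, RNY5, VTRNA1-1, VTRNA1-2, and VTRNA1-3, the other short RNAs considered, had too few counts to be tested.

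Among the protein mRNAs, those of SRP9, SRP14, SRP19, SRP72, and SEC61B fell in RIP, those of SRP68 and SEC61A1 rose, and that of SRP54 was not called. Of all 10 genes, 7 were lower and 2 were higher, set against 24.9% lower and 26.5% higher among all genes tested. The median log2 fold change was -2.05 for the 6 SRP mRNAs, compared with -0.05 for all genes tested. In 6 of the 10 genes (RN7SL1, RN7SL2, SRP9, SRP14, SRP19, and SRP72) every RIP library lay below every input, as was the case for 8.17% of all genes tested. By log2(FPKM + 1), 7 of the 10 genes were lower in RIP in 4 of 4 cell lines and 1 was higher in 4 of 4. Among all genes tested these shares were 23.6% and 30.7%.

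SRP9 and SRP14, the Alu domain proteins, fell to a similar degree. SRP9 had 558 FPKM in the Hep3B input, 303 in HCT116, 247 in DU145, and 659 in SW1990, and 232, 65.5, 50.8, and 119 FPKM in the RIP libraries. SRP14 had 108, 49.8, 75.1, and 113 FPKM in the inputs and 30.7, 14.8, 14.3, and 17.8 FPKM in the RIP libraries. Neither mRNA overlapped between the groups, and Hep3B had the highest RIP level of both. RIP over input gave a log2 fold change of -2.38 for SRP9 (SE 0.22, edgeR adjusted p = 1.81e-05) and -2.46 for SRP14 (SE 0.22, edgeR adjusted p = 1.64e-05). The log2 ratio of SRP9 minus that of SRP14 was 0.52 for Hep3B, -0.51 for HCT116, 0.06 for DU145, and 0.15 for SW1990, on average 0.06 ± 0.43 (SD, n = 4; exact sign-flip permutation test over pairs, two-sided, p = 0.625), and it turned to -0.10 without the Hep3B pair. The mean was smaller than the spread between cell lines, which does not show that both mRNAs behave alike.

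SRP19, which prepares the RNA for SRP54, fell the most among the protein mRNAs. Its inputs had 49.2, 31.8, 39.3, and 87.1 FPKM in Hep3B, HCT116, DU145, and SW1990 cells, and its RIP libraries had 6.18, 3.54, 4.10, and 7.79 FPKM. The RIP level was 12.6%, 11.1%, 10.4%, and 8.94% of the input level, so the 4 cell lines were close to each other. Its fitted log2 fold change was -3.39 (SE 0.20, edgeR adjusted p = 1.23e-05). SRP19 was also the mRNA with the fewest fragments, 110.1 in the DU145 RIP library, and the tables give it a span (chr5:112043194-112258236) shared with 11 other genes, among them APC and REEP5. Spans were also shared for SRP54 (4 other genes), SRP68 (3 other genes, among them EXOC7), and SEC61A1 (6 other genes, among them RUVBL1).

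SRP54, the GTPase that holds the signal sequence, showed no common direction. Its inputs had 36.4, 19.2, 43.2, and 14.1 FPKM and its RIP libraries 61.1, 36.9, 43.7, and 9.28 FPKM in Hep3B, HCT116, DU145, and SW1990 cells. The RIP level was above the input in Hep3B and HCT116, level with it in DU145, and below it in SW1990, and the groups overlapped. The log2 fold change was -0.23 (SE 0.24, edgeR adjusted p = 0.456). FPKM and counts went apart for this gene, since the log2 ratio averaged 0.28 ± 0.68 (SD, n = 4) on the FPKM scale and -0.22 on the scale of depth-scaled counts. The estimated count behind 1 FPKM, which follows the transcript length assumed by the authors' software, lay between 56.5 and 74.8 in the inputs and between 31.6 and 62.5 in the RIP libraries. This gap was not particular to SRP54. For SRP72 the log2 ratio averaged -1.20 on the FPKM scale and -1.69 on the scale of depth-scaled counts. The means were -2.04 and -2.36 for SRP9 and -2.10 and -2.39 for SRP14. Small shifts the other way were seen for RN7SL1 (-6.48 and -6.37), RN7SL2 (-6.62 and -6.49), and SEC61A1 (0.62 and 0.67). The count behind 1 FPKM of SRP72 was between 59.1 and 71.2 in the inputs and between 39.5 and 50.8 in RIP.

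The partners SRP68 and SRP72 moved in opposite directions. SRP68 had 30.3, 60.7, 29.9, and 36.1 FPKM in the inputs of Hep3B, HCT116, DU145, and SW1990 cells and 56.0, 257, 71.9, and 80.6 FPKM in the RIP libraries. It was higher in RIP in 4 of 4 cell lines, as were 30.7% of all genes tested. The rise was largest in HCT116, although the Hep3B RIP level lay below the HCT116 input. SRP72 had 167, 139, 82.8, and 135 FPKM in the inputs and 81.9, 45.6, 47.3, and 50.8 FPKM in the RIP libraries, lower in 4 of 4. The log2 fold change was 1.13 for SRP68 (SE 0.22, edgeR adjusted p = 0.00162) and -1.71 for SRP72 (SE 0.18, edgeR adjusted p = 3.83e-05). The log2 ratio of SRP68 exceeded that of SRP72 by 1.88, 3.66, 2.03, and 2.53 in the 4 cell lines, with a mean of 2.53 ± 0.80 (SD, n = 4; exact sign-flip permutation test over pairs, two-sided, p = 0.125, the smallest p that 4 pairs allow). Because of these shifts, the order of the SRP mRNAs by FPKM differed between inputs and RIP libraries. SRP9 was the highest and SRP72 the next in all 4 inputs, whereas SRP68 was the highest in the RIP libraries of HCT116 and DU145 cells and the next after SRP9 in SW1990 cells. In the Hep3B RIP library SRP9 and SRP72 stayed at the top, as in the inputs, and SRP68 was at rank 4. Without the block for cell line, SRP68 was not called (edgeR adjusted p = 0.171).

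**Figure D2:**
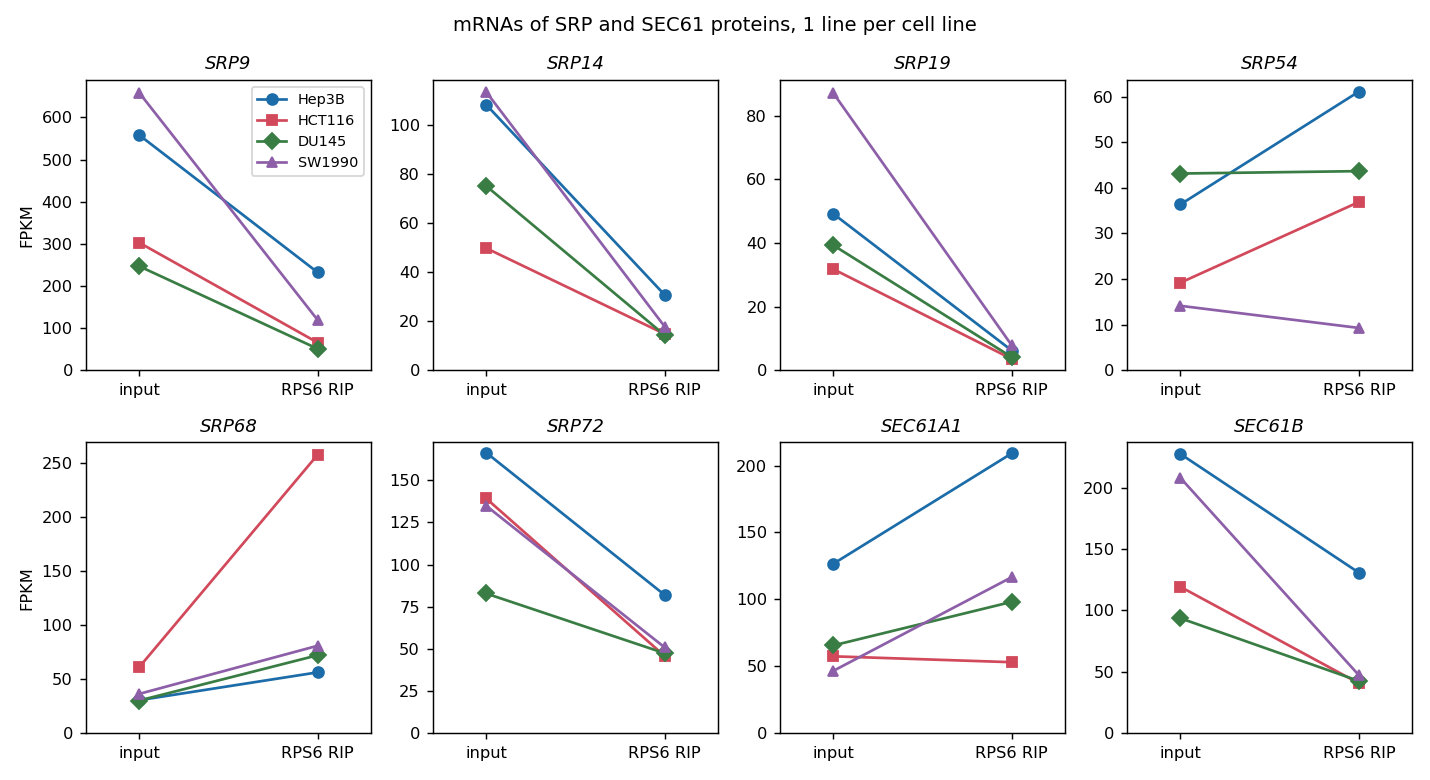
FPKM of the mRNAs of 6 SRP proteins and 2 SEC61 subunits in the input and the RPS6 RIP library of each cell line (1 line per cell line, each panel with its own axis from 0). SRP9, SRP14, SRP19, SRP72, and SEC61B fell in 4 of 4 cell lines, SRP68 rose in 4 of 4, and SRP54 and SEC61A1 had mixed directions. Among all genes tested, 23.6% fell and 30.7% rose in 4 of 4.

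The SEC61 subunits also went apart. SEC61A1, which forms the pore, had 127, 57.3, 65.4, and 46.4 FPKM in the inputs of Hep3B, HCT116, DU145, and SW1990 cells and 209, 52.9, 98.1, and 117 FPKM in the RIP libraries. It was higher in RIP in 3 of 4 cell lines, with HCT116 near equality, and the groups overlapped. The log2 fold change was 0.68 (SE 0.23, edgeR adjusted p = 0.0284). This call was lost without the Hep3B, the DU145, or the SW1990 pair (edgeR adjusted p = 0.103, 0.0913, and 0.122) and under 5 other settings given in the closing section. SEC61B, a small subunit anchored by its tail, had 228, 119, 93.6, and 208 FPKM in the inputs and 131, 40.5, 42.4, and 47.1 FPKM in the RIP libraries. RIP lay below input in 4 of 4 pairs, and the Hep3B RIP level overlapped with the inputs. The log2 fold change was -1.53 (SE 0.24, edgeR adjusted p = 0.000387), and without the block for cell line it was not called (adjusted p = 0.119). The log2 ratio of SEC61A1 exceeded that of SEC61B by 1.52, 1.42, 1.70, and 3.43 in the 4 cell lines, with a mean of 2.02 ± 0.95 (SD, n = 4; exact sign-flip permutation test over pairs, two-sided, p = 0.125, the smallest p that 4 pairs allow).

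The RNA of the particle and the mRNAs of its proteins were then compared within each pair. The log2 ratio of RN7SL1 and RN7SL2 together minus the median of the 6 SRP mRNAs was -7.63 for Hep3B, -5.09 for HCT116, -4.33 for DU145, and -2.89 for SW1990. The mean difference was -4.98 ± 1.99 (SD, n = 4; exact sign-flip permutation test over pairs, two-sided, p = 0.125). Against the SEC61 mRNAs the mean difference was -6.15 ± 1.83 (SD, n = 4; the same exact test, p = 0.125). Both differences were below 0 in 4 of 4 cell lines. In all, 6 such differences were tested, of which 4, the comparison of 7SL RNA with the other short RNAs and the 3 between partner proteins, were chosen after the values were seen.

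**Figure D3:**
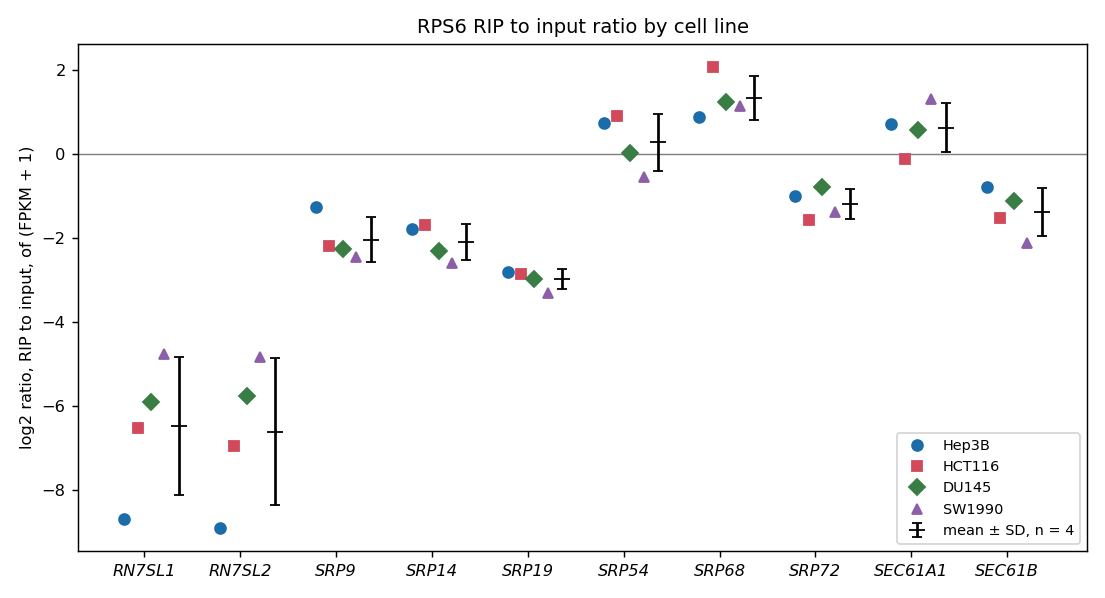
Log2 ratio of RPS6 RIP to input on the (FPKM + 1) scale for each of the 10 genes, with 1 symbol per cell line and the mean ± SD of the 4 cell lines in black. Both 7SL RNAs lie between -8.91 and -4.78, apart from the protein mRNAs, of which SRP19 is the lowest and SRP68 the highest on average.

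Other genes of ER translocation were divided too. Of the 51 genes listed for the SRP receptor, the partners of SEC61, ER complexes that process the chain, and other routes of insertion, all had enough counts. In RIP, 17 were higher (33.3%, with 26.5% among all genes tested) and 25 were lower (49.0%, with 24.9% among all genes tested), and 9 were not called. The share of higher genes was thus near that of all genes. Their median log2 fold change was -0.49, compared with -0.05 for all genes tested. The mRNA of the receptor subunit SRPR rose with a log2 fold change of 1.37 (SE 0.20, edgeR adjusted p = 0.000245), while that of its partner SRPRB had a value of -0.49 (adjusted p = 0.0632). Of 6 SEC61 partners, 5 were lower and 0 were higher. Of 6 genes listed with signal peptidase, which removes signal sequences, 5 were lower and 0 were higher. The gene not called there was HM13, with a log2 fold change of 0.39 (SE 0.18, edgeR adjusted p = 0.104). It encodes signal peptide peptidase and is not a subunit of signal peptidase. Of 4 genes of the translocon-associated TRAP complex, 3 were lower and 1 was higher. The oligosaccharyltransferase, which attaches glycans, had 3 higher and 5 lower genes of 11, the ER chaperones had 3 and 2 of 5, and the EMC insertase had 4 and 3 of 10. The GET route for tail-anchored proteins, which does not use SRP, had 5 higher and 2 lower genes of 7. These sets are small, and counts such as those of the EMC insertase and the higher genes of the oligosaccharyltransferase were near the shares of all genes tested, 26.5% higher and 24.9% lower.

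The lowest of the called genes were SEC11C and SEC11A, catalytic subunits of signal peptidase, OST4, a very small oligosaccharyltransferase subunit, and SEC61G, the gamma subunit of the channel. SEC61G had between 90.1 and 552 FPKM in the inputs and between 5.74 and 72.8 FPKM in the RIP libraries, with a log2 fold change of -2.83 (SE 0.44, edgeR adjusted p = 0.000404). The values were -3.22 for SEC11C, -3.20 for OST4, and -2.75 for SEC11A. Both small SEC61 subunits, SEC61B and SEC61G, were therefore lower in RIP. So was SEC61A2, counted here with the SEC61 partners, with a log2 fold change of -1.15 (SE 0.27, edgeR adjusted p = 0.00538). The highest were BAG6, a chaperone of the GET route, with 2.40, RPN2, an oligosaccharyltransferase subunit, with 2.03, UBL4A, a partner of BAG6, with 1.89, and EMC1, with 1.80. BAG6 had between 72.5 and 127 FPKM in the inputs and between 341 and 619 FPKM in the RIP libraries, without overlap. Every RIP library lay above every input for 10.9% of all genes tested.

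**Figure D4:**
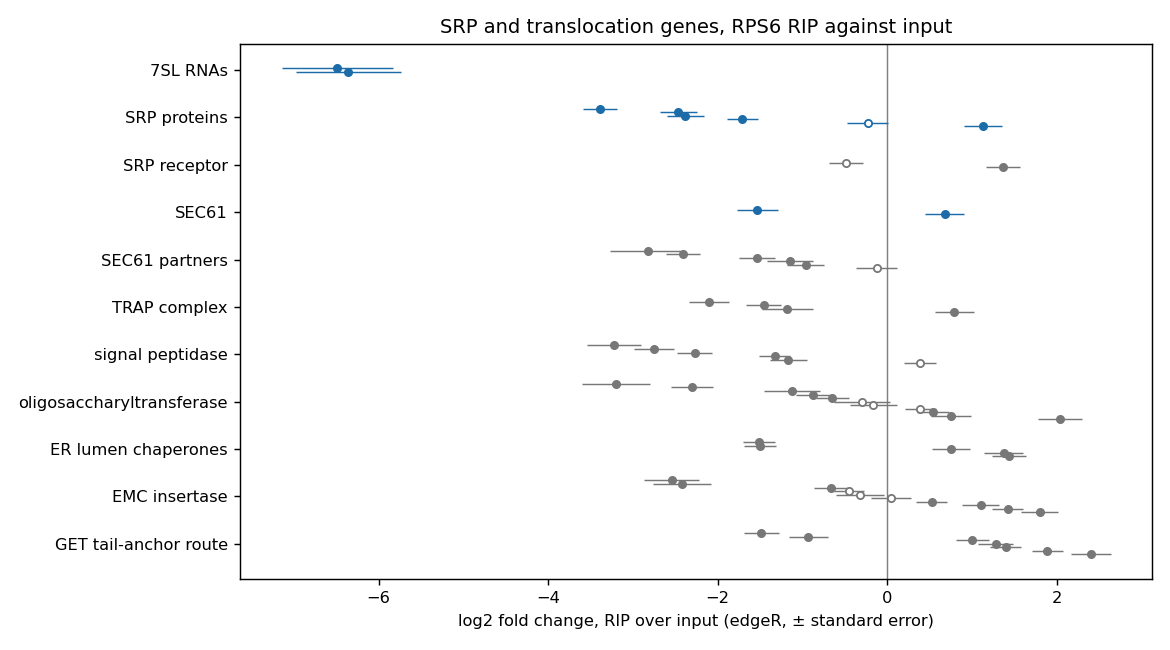
Log2 fold change of RPS6 RIP over input from edgeR with its standard error for the 10 SRP and SEC61 genes (blue) and 51 other translocation genes (grey), by complex. Filled symbols have an adjusted p-value below 0.05, and open symbols do not. The 7SL RNAs lie below -6, and all complexes except the 7SL RNAs, the SEC61 partners, and the signal peptidase hold at least 1 called gene on the higher side.

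Transcript length moved with the change between RIP and input. Length was read from the estimated count behind 1 FPKM, which is proportional to the length used by the authors' software, and genes were divided into quintiles by it. The median log2 fold change was -0.75 in the shortest quintile, -0.38, 0.06, and 0.16 in the following ones, and 0.66 in the longest. Across 19497 genes, which are not independent replicates, Spearman's rho between length and log2 fold change was 0.31. RN7SL1 and RN7SL2 were shorter than all but 0.677% and 0.703% of the genes. SEC61B stood at percentile 4.58, SRP9, SRP19, and SRP14 between 20.3 and 24.4, SRP72 at 40.3, SRP54 at 44.2, SRP68 at 63.5, and SEC61A1 at 76.6. Among the 8 mRNAs, both genes that rose were thus the longest by this measure. Within their own quintile, the 7SL RNAs lay at -5.61 (RN7SL1) and -5.74 (RN7SL2) relative to the median on the log2 scale, and 0.462% and 0.359% of the genes of that quintile were lower still. SRP19 lay at -3.01 relative to the median of its quintile, SRP14 at -2.09, SRP9 at -2.01, SRP72 at -1.77, SEC61B at -0.78, SRP54 at -0.29, SEC61A1 at 0.52, and SRP68 at 0.97. The part of length in these changes was not tested.

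**Figure D5:**
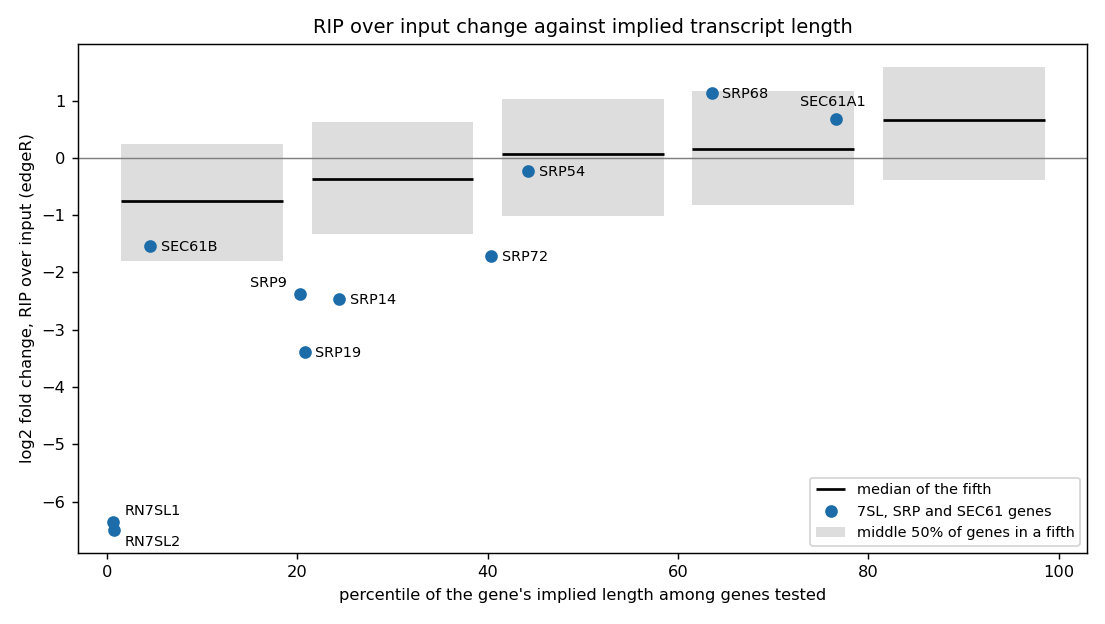
Log2 fold change of RPS6 RIP over input from edgeR against the percentile of implied transcript length among 19497 genes. Grey boxes span the middle 50% of genes in each length quintile, black lines mark the median, and blue points are the 10 SRP and SEC61 genes. RN7SL1, RN7SL2, SRP9, SRP14, SRP19, and SRP72 lie below the box of their quintile.

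Over the 8 libraries, the genes whose log2(FPKM + 1) was most like the sum of RN7SL1 and RN7SL2 were RPPH1, with a Pearson's r of 0.96, and 3 genes listed under the clone names RP11-637A17.2, RP11-158K1.3, and AC019097.7, with an r of 0.97 each and at most 1.85 FPKM. Among the SRP and SEC61 mRNAs, r with 7SL RNA was highest for SRP14 (0.77), SRP19 (0.77), and SRP72 (0.77) and lowest for SRP68 (-0.61). The genes most like SEC61A1 were DNAJC16 (0.98), PLEKHA8 (0.97), NEK10 (0.97), and SUMF1 (0.96). These values describe 8 libraries that share 4 cell lines and 2 kinds of preparation, and the genes most like 7SL RNA were picked as the highest of 19901.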

How the data were processed

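RNA from RPS6 pulldowns and inputs of 4 cancer cell lines was sequenced by the authors and aligned to human genome version 19 with TopHat (TopHat2 2.0.9 per the labels). The counting tool, the annotation release, and the use of strand in counting are not given in the sources used here. The authors deposited FPKM and an estimated count per gene and library, the latter scaled by 1 factor per library. The 4 deposited tables of fold changes with p-values between single libraries were not used. Estimated counts were rounded and tested with edgeR 4.0.16 in R 4.3.3 (TMM, mean of at least 10 counts, cell line as a block). The plan had assumed unscaled counts. Each line has 1 pair, p-values measure the spread between lines, and nothing in the labels says that a pair came from separate cultures. Cell lines pair the libraries by design, and the correlation of deviations from the group means lay between 0.84 and 0.89 within a line and was never above -0.04 between lines. Taking deviations from group means pushes the values between lines below 0, so those are no separate check. Fragments were recovered by dividing counts by the commonest small value of the library, between 0.673 and 1.27. Within 0.01, between 78.0% and 91.8% of values became whole.

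Ratios were taken as log2 of (FPKM + 1), which understates changes of weakly expressed genes, and tested over 4 lines with an exact sign-flip permutation test. Genes named are the 10 genes, RN7SL3, the short RNAs, the 2 most abundant RN7SL pseudogenes, the 4 highest and 4 lowest called translocation genes, and the 4 genes most like 7SL RNA or SEC61A1. SRPR, SRPRB, SEC61A2, and HM13 were named after their values were seen. The entry listed as BCYRN1 was left out, since its length is not that of the short RNA. The genes and lists were chosen with earlier results of these data known. Alternatives left out the block or each pair, used DESeq2 1.42.0, limma 3.58.1 with a pseudocount of 1 or 0.1 FPKM, other scalings and minimum counts, or summed the 7SL family. Recovered fragments in the test were added after the values were seen. On simulated counts with known changes, 62 of 95 changes of 4-fold and 37 of 96 of 2-fold were recovered, with 10 false calls among 109. Only those genes of 19445 tested were changed in the simulation, whereas 51.4% of genes tested were called in the data. These rates thus need not hold for the data. Protein-coding genes were taken by symbol from RefSeq (GRCh38.p14), used for names only. Other steps used SciPy 1.17.1, pandas 2.3.3, NumPy 2.4.6, and matplotlib 3.10.9 under Python 3.11.15.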

Additional observations from a re-analysis of the deposited data

Results flagged for a closer look

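In each group of 4 libraries and in the 4 ratios, the extreme cell line of each of the 10 genes was compared with the others, 30 sets in all, and chance marks about 1 set in 20. The RIP level of SEC61B was marked in Hep3B cells, with a gap to the nearest cell line of 0.873 of the whole range on the log2(FPKM + 1) scale (7.04 in Hep3B, 5.59 in SW1990 cells). Hep3B was also the cell line with the highest SEC61B input, 228 FPKM.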

How the results depend on the processing

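Without the replicate block for cell line, 1427 genes were higher and 1344 lower in RIP, compared with 5282 and 4960 with it, and 7 and 8 of the 51 translocation genes, compared with 17 and 25. Of the 10 genes, edgeR then called 0 higher (1 at an unadjusted p below 0.05) and 6 lower. SRP68 and SEC61B lost their calls under that setting alone, and over all alternatives their adjusted p-values lay between 4.21e-06 and 0.171 and between 4e-10 and 0.119. All other counts of called genes stayed within 1.5 times those reported, except for the number of the 10 genes that were higher, which changed from 2 to 1 whenever SEC61A1 lost its call. This happened with upper quartile scaling (log2 fold change 0.55, adjusted p = 0.0628), scaling on protein-coding genes (0.48, adjusted p = 0.0968), limma on log2(FPKM + 1) (0.62, adjusted p = 0.0740) or log2(FPKM + 0.1) (0.63, adjusted p = 0.0730), and without the Hep3B, DU145, or SW1990 pair, so that leaving out 1 pair gave between 1 and 2. Over all alternatives SEC61A1 had adjusted p-values between 0.00514 and 0.416. The fold change of SRP54 turned from -0.23 to 0.28 with limma on either scale, without a call, and its mean log2 FPKM ratio turned from 0.28 to -0.22 on the scale of depth-scaled counts. SRP9 minus SRP14 turned to -0.10 without the Hep3B pair, and leaving out 1 pair gave between -0.10 and 0.24. RN7SL1, RN7SL2, SRP9, SRP14, SRP19, and SRP72 were lower and called under every alternative run, with RN7SL1 between -6.98 and -5.81 and RN7SL2 between -7.07 and -5.91. The median of all genes moved from -0.05 to -0.18 with upper quartile scaling, -0.25 with scaling on protein-coding genes, 0.13 and 0.14 with limma, and -0.60 without a minimum count. Among the 10 genes, SRP19 had the fewest fragments in a library, 110.1, and RN7SL3 had 31 in the SW1990 RIP library.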
